A study of Homo sapiens with 5 samples.

Results

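RNA of 35 genes that act in G2 phase and mitosis was followed in 5 libraries of the human prostate cancer line C4-2B, out of 58812 gene IDs counted. The genes were taken as a named list of cyclins, kinases, kinetochore and spindle proteins, motors, cytokinesis factors and their transcription activators, and were found in the counts by Ensembl ID. All 35 had counts in each library and passed the filter on low counts. C4-2B is a castration-resistant line derived from LNCaP. The clones carry HOXB13 K13A, in which lysine 13 of this prostate homeobox factor, an acetylation site, is replaced by alanine. There were 2 libraries of clone C4K13A, 1 library of clone C5K13A and 2 libraries of the parental line, all grown in the same C4-2B medium. Each mutant line is a clone, so the K13A change cannot be told apart from other differences between a clone and its parental population. The labels name no separate cultures for the libraries of a group, and the p-values therefore rest on a between-library spread that can be technical.

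Cells enter mitosis when CDK1 bound to cyclin B becomes active, and leave it when the anaphase-promoting complex marks cyclin B and securin for destruction. Transcripts of this machinery build up in G2: the MuvB complex represses their promoters in resting cells and, with the activators MYBL2 (B-Myb) and FOXM1, drives them in cycling cells. Their summed level in a bulk sample is widely read as a sign of proliferation. In bulk RNA, fewer cells in G2 and mitosis and less of these transcripts per cell cannot be told apart.

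Promoters of this class are known for the cell cycle homology region (CHR), which MuvB binds, and for CCAAT boxes, which NF-Y binds. Both were searched for on both strands from 250 bases before to 50 bases after the RefSeq start (GRCh38.p14), with TTTGAA and TTCGAA as CHR letters and CCAAT as the NF-Y box. Of the 29 members in the promoter table, 21 (72.4%) held CHR letters, as did 16.4% of 35116 promoters, and 21 held CCAAT, against 34.6%. At least 2 CCAAT boxes were found in 15 members (51.7%) and in 10.8% of all promoters. CHR letters together with CCAAT stood in 16 members (55.2%) and in 6.38% of all. A match is a run of letters and does not show that a factor binds there. The 250 bases before the start are printed for the 3 members with the smallest and the 3 with the largest p between the clones and the parental line, with CHR letters and CCAAT in capitals on either strand (TTCAAA and ATTGG are their reverse complements).
CDK1, chr10:60778228-60778477, plus strand: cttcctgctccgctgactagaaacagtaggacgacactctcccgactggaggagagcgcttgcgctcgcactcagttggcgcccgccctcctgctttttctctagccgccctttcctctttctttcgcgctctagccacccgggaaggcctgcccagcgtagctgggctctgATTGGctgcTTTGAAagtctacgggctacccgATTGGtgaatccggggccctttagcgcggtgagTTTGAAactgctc
ANLN, chr7:36389612-36389861, plus strand: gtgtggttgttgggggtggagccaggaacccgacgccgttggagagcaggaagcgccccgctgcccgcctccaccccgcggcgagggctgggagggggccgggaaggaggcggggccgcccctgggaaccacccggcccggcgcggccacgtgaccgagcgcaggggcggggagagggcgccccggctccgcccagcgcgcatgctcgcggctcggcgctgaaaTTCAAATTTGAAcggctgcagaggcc
BUB1B, chr15:40160819-40161068, plus strand: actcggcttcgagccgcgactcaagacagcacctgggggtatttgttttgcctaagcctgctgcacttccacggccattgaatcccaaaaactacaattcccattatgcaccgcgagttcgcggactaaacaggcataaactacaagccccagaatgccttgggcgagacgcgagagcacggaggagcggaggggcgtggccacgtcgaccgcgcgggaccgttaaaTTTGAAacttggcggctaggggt
KIF2C, chr1:44739587-44739836, plus strand: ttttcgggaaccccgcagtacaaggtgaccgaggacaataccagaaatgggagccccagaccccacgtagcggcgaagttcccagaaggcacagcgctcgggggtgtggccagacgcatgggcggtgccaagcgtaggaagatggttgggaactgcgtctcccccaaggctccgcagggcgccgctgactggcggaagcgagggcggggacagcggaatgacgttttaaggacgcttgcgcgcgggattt
ECT2, chr3:172750752-172751001, plus strand: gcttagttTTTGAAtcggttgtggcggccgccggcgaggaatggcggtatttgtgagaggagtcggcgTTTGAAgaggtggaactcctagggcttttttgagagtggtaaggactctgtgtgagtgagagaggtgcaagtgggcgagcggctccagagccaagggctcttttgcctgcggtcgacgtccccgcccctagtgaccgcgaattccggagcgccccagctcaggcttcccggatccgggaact
CENPF, chr1:214602945-214603194, plus strand: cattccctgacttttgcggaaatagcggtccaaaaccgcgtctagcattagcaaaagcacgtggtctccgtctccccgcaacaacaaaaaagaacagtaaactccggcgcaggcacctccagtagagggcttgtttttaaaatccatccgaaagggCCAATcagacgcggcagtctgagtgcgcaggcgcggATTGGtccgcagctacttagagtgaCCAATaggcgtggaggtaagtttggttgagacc
CDK1 held CHR letters at 69 and 13 bases before the start, and CCAAT on the minus strand at 78 and 46. It also held CHR letters on the minus strand at 9 bases after the start, which are not printed. ANLN and BUB1B held CHR letters within 26 bases of the start and no CCAAT. KIF2C held neither motif in the window, and ECT2 held CHR letters at 242 and 182 bases before the start. These positions count from the RefSeq start. In the GENCODE v29 annotation ECT2 starts at 172750682, upstream of its printed window. There CDK1, ANLN, BUB1B and KIF2C start inside theirs. CENPF held CCAAT at 94, 58 and 33 bases before the start, and, after the start and so not printed, CHR letters and a further CCAAT. These 2 triplets were chosen by p, and no relation between motif and response was tested.

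The libraries held 43190276 to 57282373 counts, and the lowest count of any member in a library was 905. Luminal prostate markers summed to between 5040 and 6130 CPM (counts over TMM-scaled library totals) in the clones, against 6820 and 5040 CPM in the parental libraries. The 5 leukocyte markers and the 4 basal markers each stayed under 1 CPM in every library. Fibroblast markers summed to between 5.12 and 6.15 CPM in the clones, against 6.91 and 6.98 CPM in the parental libraries, mostly from COL1A1, with LUM at 0. Endothelial markers summed to between 3.27 and 5.16 CPM in the clones, against 6.27 and 6.26 CPM in the parental libraries, mostly from VWF, with KDR and CDH5 at or near 0. Their part in the results was not tested. HOXB13 itself had 344, 348 and 352 CPM in the clones and 338 and 448 CPM in the parental libraries. Gene counts cannot show the substitution. Mitochondrial ribosomal RNA left after depletion was 65.4 and 353 CPM in the C4K13A libraries and 658 CPM in C5K13A, against 29.03 CPM in parental library 1 and 1723 CPM in parental library 2.

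Parental library 1 stood apart from the other 4 libraries in mitotic RNA. The 35 genes summed to 4240 and 3530 CPM in the C4K13A libraries and 3600 CPM in C5K13A, against 2010 CPM in parental library 1 and 3730 CPM in parental library 2. Parental library 1 lay far below the 3 clone libraries, and parental library 2 lay inside their range. Parental library 1 had the lowest value of the 5 libraries in 32 of 35 genes. The exceptions were TOP2A, lowest in C4K13A library 2, and CENPF and KIF2C, lowest in C5K13A. C4K13A library 1 had the highest value in 27 genes, and parental library 2 in 6. How often each library ranks lowest or highest over all genes was not counted, so these ranks have no background beside them. The median of log2 CPM minus the gene's mean over the 5 libraries was -0.61 for the members in parental library 1. For all genes tested it was 0.02 there and 0.01 in the other 4 libraries. Each of the 35 genes was higher in parental library 2 than in parental library 1, with a median log2 difference of 0.81 and a range of 0.15 to 1.83. Among all genes tested this median was -0.01, and 49.6% were higher in parental library 2. Of the members 25 were more than 1.5-fold higher there, as were 14.1% of all genes. These are 2 libraries of the same group, so the gap is a description. The parental libraries also differed outside the mitotic genes. Over all genes tested, the chi-square per gene between their counts was 164. Parental library 1 gave 132 and 152 against C4K13A libraries 1 and 2, and 158 against C5K13A. Parental library 2 gave 122, 102 and 50.1 against the same libraries. It was 49.3 between the C4K13A libraries. This measure uses raw counts and grows with depth, and the parental libraries had the most counts, so its order over pairs is not a ranking of difference. TMPRSS2, for example, had 713 CPM in parental library 1 and 319 CPM in parental library 2.

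**Figure D1:**
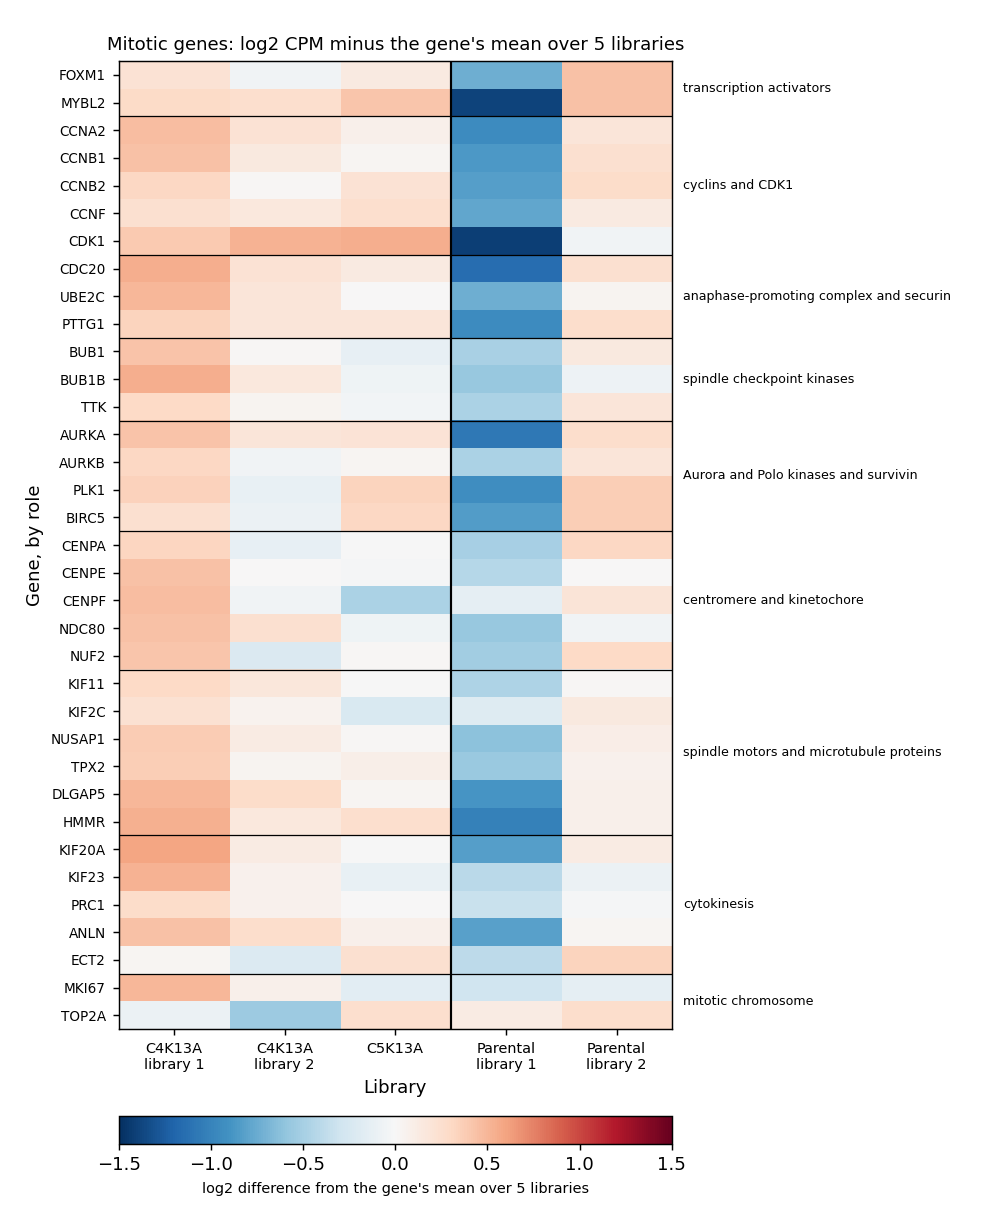
Each row is one of the 35 mitotic genes, ordered by role, and each column a library, with the clones left of the parental line. Colour gives log2 CPM minus the gene's mean over the 5 libraries; the parental library 1 column is the lowest in 32 of 35 rows.

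The first comparison asked whether mitotic RNA differed between the K13A clones and the parental line. Over both clones no mitotic gene passed the threshold of 0.05 on the adjusted p (edgeR quasi-likelihood test, Benjamini-Hochberg over 20649 genes), where 0.203% of all genes did. DESeq2 and limma-voom also called 0 of 35, with lowest adjusted p of 0.0666 and 0.254. At an unadjusted p under 0.05, 4 members (CDK1, ANLN, BUB1B and HMMR) were higher in the clones, which is 11.4% of the members beside 4.30% of all genes, and 0 members were lower, beside 6.68% of all genes. The fitted log2 fold change was above 0 for 33 of 35 members, with a median of 0.39 and a range of -0.29 to 1.07; it was above 0 for 49.4% of all genes tested, with a median of 0. All 3 clone libraries lay above both parental libraries for 6 members, CDK1, CCNF, BUB1B, HMMR, PRC1 and ANLN. That is 17.1% of the members, near the 13.6% of all genes, and no member lay below in the same way, where 14.9% of all genes did.

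The direction rested on parental library 1. Without it the median fold change of the members was 0.07, and 19 were above 0 and 16 below. Without parental library 2 the median was 0.80 and 34 were above 0. For all genes tested the medians were 0.02 without parental library 1 and 0 without parental library 2, and shares above 0 were not counted. Between the library pairs with little mitochondrial ribosomal RNA (C4K13A library 1 over parental library 1) the median was 1.01, and among the others it was -0.06, with 13 members above 0. Parental library 1 is the only parental library on its side of that split, at 200 CPM. Within the parental line the split therefore cannot be told apart from that library. In a fit with this split as a covariate, the median fold change of the members was 0.39, 32 of 35 were above 0, CDK1 was at 1.09 (edgeR adjusted p = 0.200) and no member was called.

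**Figure D2:**
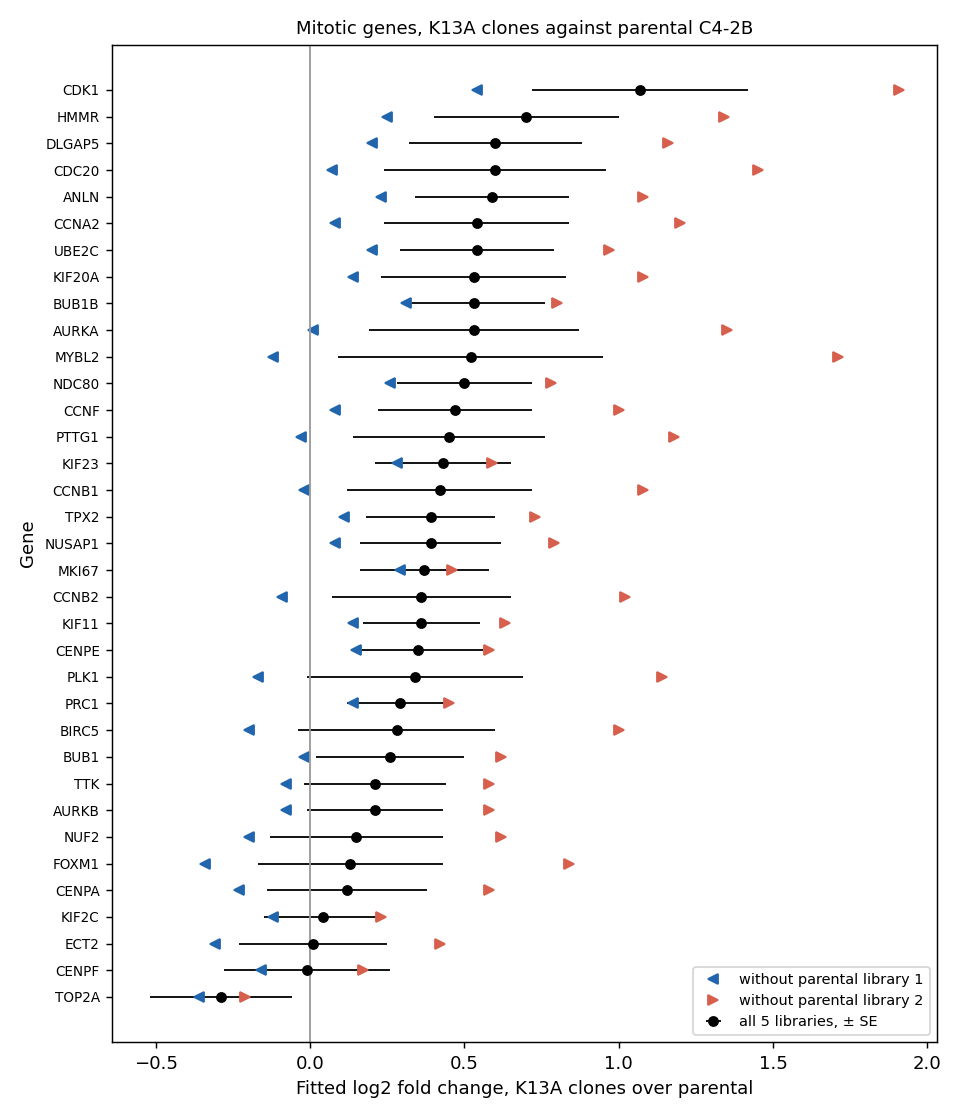
The horizontal axis is the fitted log2 fold change of the K13A clones over parental for each of the 35 mitotic genes. Triangles give the same fit without one parental library, points with bars (± SE) all 5 libraries; without parental library 1 the values centre near 0 (median 0.07), without parental library 2 near 0.80.

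CDK1, the kinase that drives entry into mitosis (ENSG00000170312; chr10:60778331-60794852, plus strand, GRCh38 in GENCODE v29), showed the widest difference. It had 255 and 279 CPM in the C4K13A libraries and 282 CPM in C5K13A, against 72.6 and 187 CPM in the parental libraries. The clone libraries lay close together and above both parental ones, which differed 2.58-fold. Its fold change was 1.07 ± 0.35 on the log2 scale (SE, edgeR adjusted p = 0.319). Leaving out parental library 1 gave 0.54 (adjusted p = 0.794), and leaving out parental library 2 gave 1.91 (0.0397). CDK1 also passed without a filter on low counts (6.58e-06), and over the 16 alternatives its adjusted p ran up to 0.858.

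The cyclins that partner CDK1 gave smaller values. CCNB1, the main mitotic cyclin, had 202 and 166 CPM in the C4K13A libraries and 153 CPM in C5K13A, against 82.3 and 177 CPM in the parental libraries, so the groups overlapped. The fold change of CCNB1 was 0.42 ± 0.30 (edgeR adjusted p = 0.651), and without parental library 1 it was -0.02. CCNB2, the Golgi-associated B cyclin, had 89.0 and 72.6 CPM in the C4K13A libraries and 83.6 CPM in C5K13A, against 40.3 and 86.9 CPM in the parental libraries (0.36 ± 0.29, adjusted p = 0.693; -0.09 without parental library 1). CCNA2, which acts in S phase and G2, and CCNF, an F-box protein of the cyclin family, had fold changes of 0.54 and 0.47. Exons of CCNA2 overlap EXOSC9 on the other strand, whose counts were 31.9% of those of CCNA2. CCNF was the cyclin whose groups did not overlap, by a margin of 80.9 CPM in the lowest clone library over 79.4 CPM in parental library 2.

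**Figure D3:**
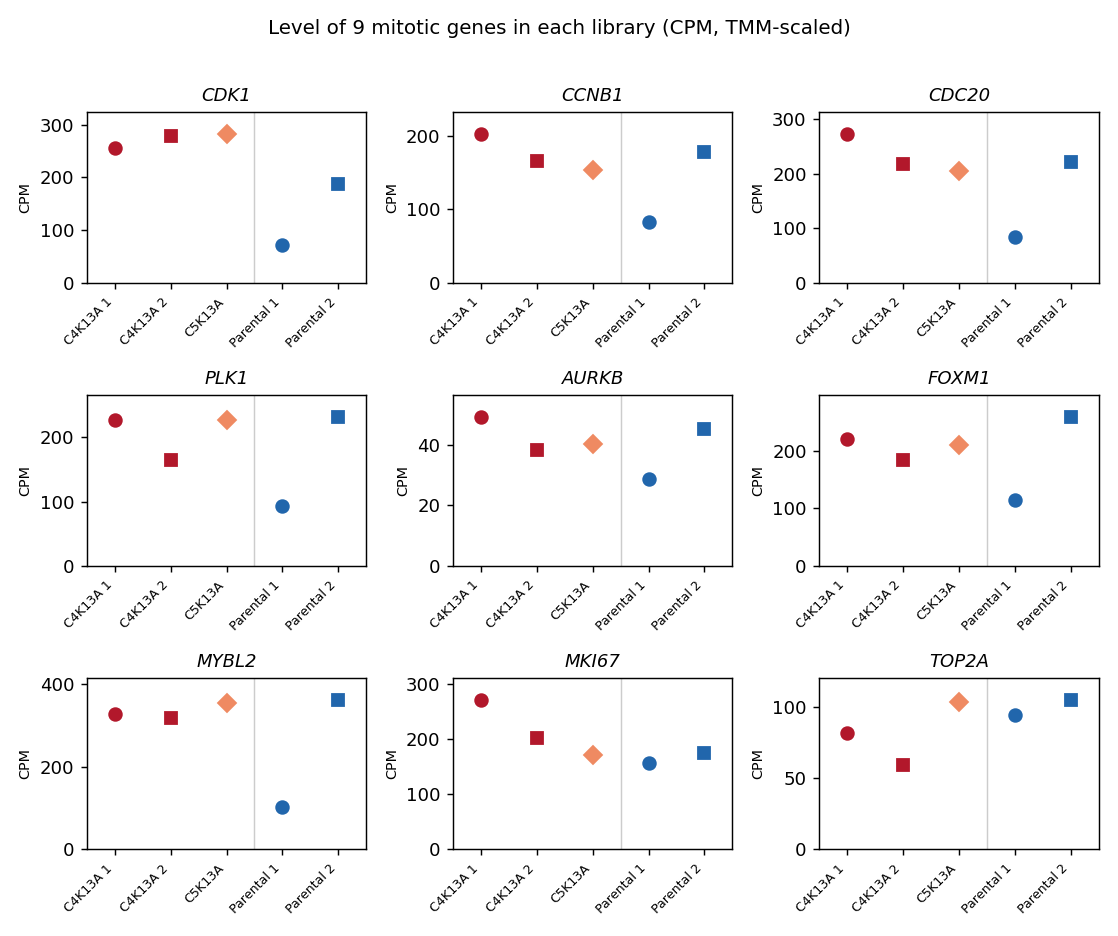
Each panel gives the CPM of one of 9 mitotic genes in the 3 clone libraries (left) and the 2 parental libraries (right), on linear axes from 0. CDK1 is above both parental libraries in each clone library, and for FOXM1, PLK1 and MYBL2 parental library 2 is the highest of the 5.

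The activators of the programme were low in parental library 1 and highest in parental library 2. MYBL2 (B-Myb; chr20:43667019-43716496, plus strand) had 327 and 317 CPM in the C4K13A libraries and 355 CPM in C5K13A, against 102 and 361 CPM in the parental libraries. The 3.55-fold gap between the parental libraries was the widest among the 35 genes, while the clone libraries differed little from each other and from parental library 2. Its fold change was 0.52 ± 0.43 (edgeR adjusted p = 0.701), or -0.12 without parental library 1 and 1.71 without parental library 2 (0.0412). FOXM1, the forkhead factor of the same promoters, had 221 and 184 CPM in the C4K13A libraries and 209 CPM in C5K13A, against 115 and 258 CPM in the parental libraries. The clones lay between the parental values in every library, with a fold change of 0.13 ± 0.30 (adjusted p = 0.905), or -0.34 without parental library 1. Exons of FOXM1 overlap ITFG2 on the other strand. The strand setting of the counting is not given in the sources used here, so reads of such pairs cannot be told apart.

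Genes of the exit from mitosis were lowest in parental library 1 as well. CDC20, the activator of the anaphase-promoting complex, had 273 and 218 CPM in the C4K13A libraries and 206 CPM in C5K13A, against 84.9 and 221 CPM in the parental libraries (0.60 ± 0.36, edgeR adjusted p = 0.578). Parental library 2 lay within the clone range, and the fold change of CDC20 was 0.07 without parental library 1. PTTG1, the securin that holds separase inactive, had 67.5 and 60.6 CPM in the C4K13A libraries and 60.7 CPM in C5K13A, against 27.8 and 64.3 CPM in the parental libraries (0.45 ± 0.31, adjusted p = 0.636; -0.03 without parental library 1). UBE2C, the ubiquitin-conjugating enzyme of that complex, had a fold change of 0.54 ± 0.25. Reads may be shared with processed copies of these genes, whose summed counts were 3.22% of those of CDC20 and 1.69% of those of PTTG1.

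The mitotic kinases differed in the size of the parental gap. PLK1, the Polo kinase of centrosome maturation and cytokinesis, had 227 and 165 CPM in the C4K13A libraries and 226 CPM in C5K13A, against 93.8 and 231 CPM in the parental libraries (0.34 ± 0.35, edgeR adjusted p = 0.756; -0.17 without parental library 1). AURKA, the spindle pole Aurora kinase, had 83.6 and 70.4 CPM in the C4K13A libraries and 71.2 CPM in C5K13A, against 29.4 and 74.4 CPM in the parental libraries (0.53 ± 0.34, adjusted p = 0.602; 0.01 without parental library 1). In both genes 1 parental library was the lowest of the 5 and the other was within or above the clones. AURKB, the kinase of the chromosomal passenger complex, had 49.1 and 38.3 CPM in the C4K13A libraries and 40.4 CPM in C5K13A, against 28.6 and 45.1 CPM in the parental libraries (0.21 ± 0.22, adjusted p = 0.767; -0.08 without parental library 1). BIRC5 (survivin), a subunit of the same complex, had a fold change of 0.28, and -0.20 without parental library 1. The parental gap was 2.47-fold for PLK1, 2.53-fold for AURKA and 2.29-fold for BIRC5, against 1.58-fold for AURKB.

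Among the spindle checkpoint kinases, BUB1B (BubR1, which holds CDC20 inactive until chromosomes attach) kept its direction without either parental library. It had 92.2 and 70.7 CPM in the C4K13A libraries and 60.3 CPM in C5K13A, against 42.7 and 60.1 CPM in the parental libraries. C5K13A and parental library 2 were almost equal, so the separation of the groups rested on C4K13A. Its fold change was 0.53 ± 0.23 (edgeR adjusted p = 0.452), with 0.31 and 0.80 when parental library 1 or 2 was left out. TTK (Mps1), which starts the checkpoint signal, had 28.4 and 23.7 CPM in the C4K13A libraries and 22.4 CPM in C5K13A, against 16.6 and 26.2 CPM in the parental libraries (0.21 ± 0.23, adjusted p = 0.769; -0.08 without parental library 1). BUB1, the kinase that recruits checkpoint proteins to kinetochores, had a fold change of 0.26, and -0.02 without parental library 1.

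Centromere and kinetochore members ranged more widely. NDC80, the microtubule-binding subunit of the outer kinetochore, had 54.2 and 47.0 CPM in the C4K13A libraries and 38.0 CPM in C5K13A, against 27.0 and 38.6 CPM in the parental libraries (0.50 ± 0.22, edgeR adjusted p = 0.457; 0.26 without parental library 1). Its partner NUF2, which joins it in the same rod, had a fold change of 0.15, and -0.20 without parental library 1. NUF2 exons overlap RGS5 on the other strand, and the entries of that name had 30.8% of the counts of NUF2. CENPF, a large protein that loads onto kinetochores in G2, had 182 and 127 CPM in the C4K13A libraries and 94.7 CPM in C5K13A, against 120 and 151 CPM in the parental libraries. C5K13A was the lowest of the 5 libraries and C4K13A library 1 the highest, so the clones disagreed. Its fold change was -0.01 ± 0.27 (adjusted p = 0.994). Leaving out parental library 2 gave 0.17, and leaving out C5K13A gave 0.19. CENPE, the kinetochore kinesin, and CENPA, the centromeric histone, had fold changes of 0.35 and 0.12, and CENPA was at -0.23 without parental library 1.

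Of the spindle proteins, HMMR, which anchors spindle poles, gave the second largest fold change among the 35 genes. It had 105 and 81.4 CPM in the C4K13A libraries and 86.7 CPM in C5K13A, against 36.0 and 76.4 CPM in the parental libraries. The groups did not overlap, but the distance from parental library 2 to the nearest clone library was a small part of the distance between the parental libraries. Its fold change was 0.70 ± 0.30 (edgeR adjusted p = 0.452), or 0.25 without parental library 1 and 1.34 without parental library 2. HMMR passed without a filter on low counts (adjusted p = 0.0157), and its adjusted p ran up to 0.947 over all alternatives. KIF2C, the microtubule-depolymerising kinesin, had 66.7 and 59.2 CPM in the C4K13A libraries and 48.8 CPM in C5K13A, against 49.8 and 63.2 CPM in the parental libraries (0.04 ± 0.19, adjusted p = 0.953). The sign of KIF2C turned without parental library 1 (-0.12) and without C4K13A library 1 (-0.07). The motor KIF11 and the microtubule proteins NUSAP1, TPX2 and DLGAP5 lay between, from 0.36 to 0.60.

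Cytokinesis genes gave the same spread. ANLN (anillin, which organises the contractile ring) had 135 and 120 CPM in the C4K13A libraries and 105 CPM in C5K13A, against 56.9 and 102 CPM in the parental libraries (0.59 ± 0.25, edgeR adjusted p = 0.452; 0.23 without parental library 1 and 1.08 without parental library 2). ECT2, the exchange factor that activates RhoA at the cleavage plane, had 83.4 and 70.8 CPM in the C4K13A libraries and 96.6 CPM in C5K13A, against 62.4 and 103 CPM in the parental libraries. Its fold change was 0.01 ± 0.24 (adjusted p = 0.993), and -0.31 and 0.42 without parental library 1 or 2. The kinesins KIF20A and KIF23 and the midzone crosslinker PRC1 had fold changes of 0.53, 0.43 and 0.29. For KIF20A, whose exons overlap CDC23 and BRD8 on the other strand, those genes had 118% of its counts, taken over their whole exons. Reads in the shared stretch were not counted apart, so how far they bear on the value of KIF20A is not known.

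The proliferation markers TOP2A and MKI67 had the smallest gaps between the parental libraries, 1.11-fold and 1.12-fold. TOP2A, which untangles chromosomes (chr17:40388516-40417950, minus strand), had 81.9 and 59.6 CPM in the C4K13A libraries and 104 CPM in C5K13A, against 94.7 and 105 CPM in the parental libraries. Both C4K13A libraries were below the others, while C5K13A and the parental libraries lay close together. The fold change of TOP2A over both clones was -0.29 ± 0.23 (edgeR adjusted p = 0.685), and it was negative without each library in turn. MKI67, the gene of the Ki-67 antigen that coats mitotic chromosomes (chr10:128096659-128126385, minus strand), had 271 and 202 CPM in the C4K13A libraries and 172 CPM in C5K13A, against 156 and 175 CPM in the parental libraries. C5K13A lay between the parental libraries and C4K13A above them, with a fold change of 0.37 ± 0.21 (adjusted p = 0.558). Without C4K13A library 1 the fold change of MKI67 was 0.17.

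By clone, each compared with the same parental libraries in 1 fit of 3 groups, the mitotic genes again gave 0 calls in edgeR. For C4K13A the median fold change of the members was 0.45 (range -0.50 to 1.04), and -0.01 for all 22743 genes, of which 0.699% were called. At an unadjusted p under 0.05, 8 members were higher in C4K13A, beside 4.27% of all genes. They were CDK1, UBE2C, BUB1B, NDC80, DLGAP5, KIF23, ANLN and MKI67, while TOP2A was lower (-0.50 ± 0.21, adjusted p = 0.393), beside 7.93% of all genes. A fold change above 0 was fitted for 33 members and for 48.9% of all genes. Both C4K13A libraries lay above both parental ones for 15 members, beside 21.2% of all genes, and below them for TOP2A alone, beside 22.9%. DESeq2 and limma-voom called 0 members in C4K13A, with lowest adjusted p of 0.0520 and 0.274. For C5K13A the median was 0.24 (range -0.51 to 1.13), beside a median of -0.03 for all genes, of which 0.0484% were called. CDK1 alone had an unadjusted p under 0.05 in C5K13A (1.13 ± 0.45, adjusted p = 0.736), where 2.09% of all genes were higher and 4.37% lower at that level. C5K13A is a single library, so the spread behind its p-values comes wholly from the C4K13A and parental libraries. The value was above 0 for 33 members and for 47.1% of all genes. C5K13A lay above both parental libraries for 7 members, beside 31.5% of all genes, and below both for CENPF and KIF2C, beside 35.9%. DESeq2 and limma-voom called 0 members there too.

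These clone values rested on parental library 1 as well. Without parental library 2, edgeR called 22 members in C4K13A, all higher, with a median of 0.91, where 7.59% of all genes were called. In C5K13A it called 11 members without that library, all higher, with a median of 0.65, where 3.04% of all genes were called. These fits weigh 1 parental library and take it to vary like the C4K13A libraries. Without parental library 1 no member was called. The C4K13A median was then 0.09, the C5K13A median was -0.05, and 28 of 35 members had a negative value in C5K13A. For all genes tested these medians were 0.02 and -0.01, and the share with a negative value was not counted.

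The clones were then compared with each other, in the same fit of 3 groups. The fold changes use the clone libraries, while the errors and p-values also carry the spread between the parental libraries. Without parental library 1 the lowest adjusted p of a member was 0.273, against 0.765 with all libraries. No member passed between C5K13A and C4K13A (edgeR, 0.0660% of all genes called; DESeq2 and limma-voom 0 members). The median fold change was -0.21, and 9 of 35 members had a value above 0, beside a median of -0.03 and 47.1% of all genes. C5K13A lay below both C4K13A libraries for 19 members (54.3%), where 36.1% of all genes did, and above both for 6 (17.1%), where 34.5% did. Without C4K13A library 1, the library with the most mitotic RNA, the median was -0.05 and 19 members had a negative value. At an unadjusted p under 0.05 CENPF alone was lower (-0.70 ± 0.29, edgeR adjusted p = 0.765) and no member higher, beside 2.93% and 3.49% of all genes. TOP2A pointed the other way (0.56 ± 0.25, adjusted p = 0.786). Within C4K13A, library 2 was lower than library 1 in 34 of 35 members, with a median log2 difference of -0.29. The share of all genes lower in library 2 was not counted. The median of log2 CPM minus the gene's mean over the 5 libraries was 0.01 in both for all genes tested. For the members it was 0.40 in library 1 and 0.08 in library 2.

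Levels per kilobase of exon ranged widely, and their order varied between libraries. Averaged over the 5 libraries, MYBL2 (105 ± 38.9 CPM per kb, SD over libraries) and CDC20 (98.4 ± 34.2 CPM per kb) led, and they did not differ beyond that spread: CDC20 was above MYBL2 in C4K13A library 1 and parental library 1 and below it in the other 3. CCNB1 and UBE2C followed at 61.0 CPM per kb each, with CDK1 at 54.8 and TPX2 at 46.4 CPM per kb. The lowest levels per length were those of TTK (5.12 ± 0.978 CPM per kb), CENPE (4.61 ± 0.978 CPM per kb) and KIF23 (4.56 ± 1.14 CPM per kb). Their means lay within that spread of each other, but TTK was above CENPE in each of the 5 libraries. KIF23 was above CENPE in both C4K13A libraries and below it in C5K13A and parental library 2. MKI67 had 15.2 CPM per kb, about the level of DLGAP5 and ECT2 (15.1 CPM per kb each).

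The gap between the parental libraries varied with exon length among the members. Across the 35 genes Spearman's rho of exon length with the log2 gap was -0.55, while across 13744 protein-coding genes it was -0.15; genes of 1 library pair are not independent. With protein-coding genes divided by length into 4 equal bins, the 3 members in the longest bin (CENPE, CENPF and MKI67) had a median gap of 0.33, and the 11 in the shortest bin 1.11. For all protein-coding genes the medians in those bins were -0.07 and 0.14. The median of the members was above that of protein-coding genes in each of the 4 bins. Transcript GC content gave rho of 0.31 over the members and -0.05 over protein-coding genes. The part of length in the result was not tested.

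**Figure D4:**
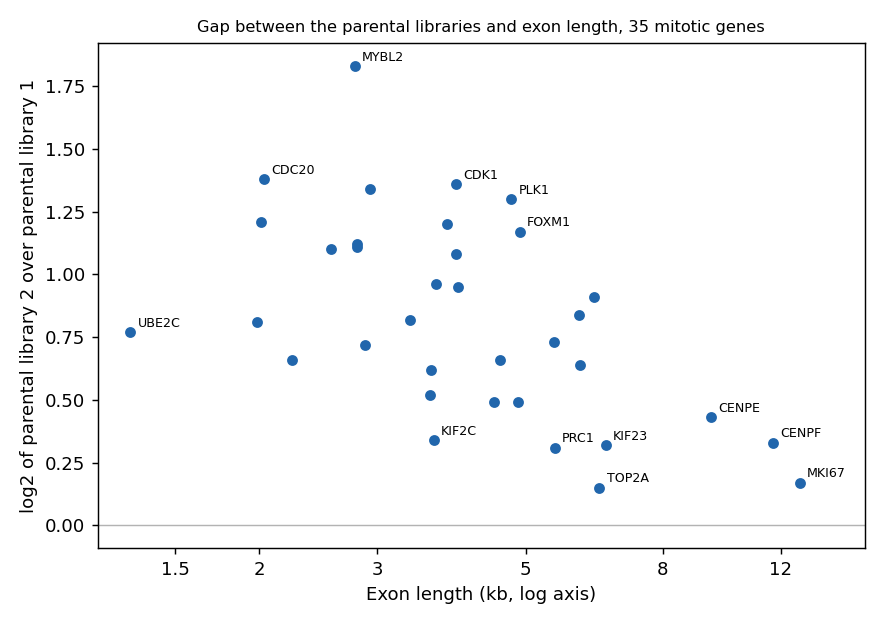
The horizontal axis is summed exon length in kb (log axis) and the vertical axis the log2 ratio of parental library 2 to parental library 1, one point per mitotic gene. All 35 points lie above 0, from TOP2A (0.15) to MYBL2 (1.83), and the 3 longest genes lie between 0.17 and 0.43.

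The members sit on 15 chromosomes, and no chromosome held more than 5. Median fold changes of all genes tested on those chromosomes ran from -0.18 to 0.09, and 33 of 35 members were above the median of their chromosome. The lowest chromosome medians were those of chromosome 17 (-0.18), which carries AURKB, BIRC5 and TOP2A, and chromosome 3 (-0.16), which carries ECT2.

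Other genes of the mitotic machinery gave values of the same sign in most cases, and their lists were also lowest in parental library 1. None of the genes in 9 further cell cycle lists passed the threshold in edgeR in the comparison of both clones with parental. The 24 other kinetochore genes had a median fold change of 0.26, with 5 higher at an unadjusted p under 0.05, beside 4.30% of all genes. SPC24, a subunit of the NDC80 complex, had 180 and 160 CPM in the C4K13A libraries and 147 CPM in C5K13A, against 70.2 and 121 CPM in the parental libraries (0.76 ± 0.24, adjusted p = 0.306; 0.43 without parental library 1 and 1.21 without parental library 2). SPC24 passed without a filter on low counts (adjusted p = 0.00474), and its adjusted p ran up to 0.895 over the alternatives. KNL1, the kinetochore scaffold, had a fold change of 0.59 ± 0.22. The 19 other mitotic kinesins and cytokinesis genes had a median of 0.27 and each was above 0, as were 49.4% of all genes, with 4 higher at an unadjusted p under 0.05, beside 4.30%. KIFC1, a minus-end motor that clusters centrosomes, had 114 and 91.6 CPM in the C4K13A libraries and 89.6 CPM in C5K13A, against 54.8 and 64.6 CPM in the parental libraries. All clone libraries of KIFC1 lay above the parental ones with little parental gap (0.72 ± 0.18, adjusted p = 0.214; 0.61 without parental library 1). DESeq2 called KIFC1 (adjusted p = 0.0161), and its adjusted p ran from 0.0101 to 0.859 over alternatives. CKAP2, a spindle microtubule protein, had a fold change of 0.58 ± 0.20.

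Condensin and separase genes had a median of 0.27, with NCAPD3 at 0.55 and NCAPG at 0.41. The remaining chromosomal passenger and checkpoint genes had a median of 0.32, with SGO2, the protector of centromeric cohesin, at 0.60 and CDCA8 (borealin) at 0.52. Core subunits and regulators of the anaphase-promoting complex had a median of 0.13, with ANAPC4 at 0.52 and its inhibitor FBXO5 at 0.41. Regulators of CDK1 had a median of 0.27, with the phosphatase genes CDC25A at 0.61 and CDC25C at 0.40. Genes of the DREAM and MuvB complexes and NF-Y had a median of 0.12, with E2F4 at 0.49 and TFDP2 at -0.49. The clones differed for E2F4, at 0.67 in C4K13A and 0.02 in C5K13A against parental. TFDP2 was at -0.63 and -0.24. The gap between the parental libraries was 0.05 (median log2) for that list and 0.25 for the anaphase-promoting complex subunits. On the same measure it was 0.76 for the 35 mitotic genes. It was 0.62 for the other chromosomal passenger and checkpoint genes and 0.55 for the other mitotic kinesins and cytokinesis genes. Condensin and separase genes had a gap of 0.50, other kinetochore genes 0.43 and regulators of CDK1 0.34.

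**Figure D5:**
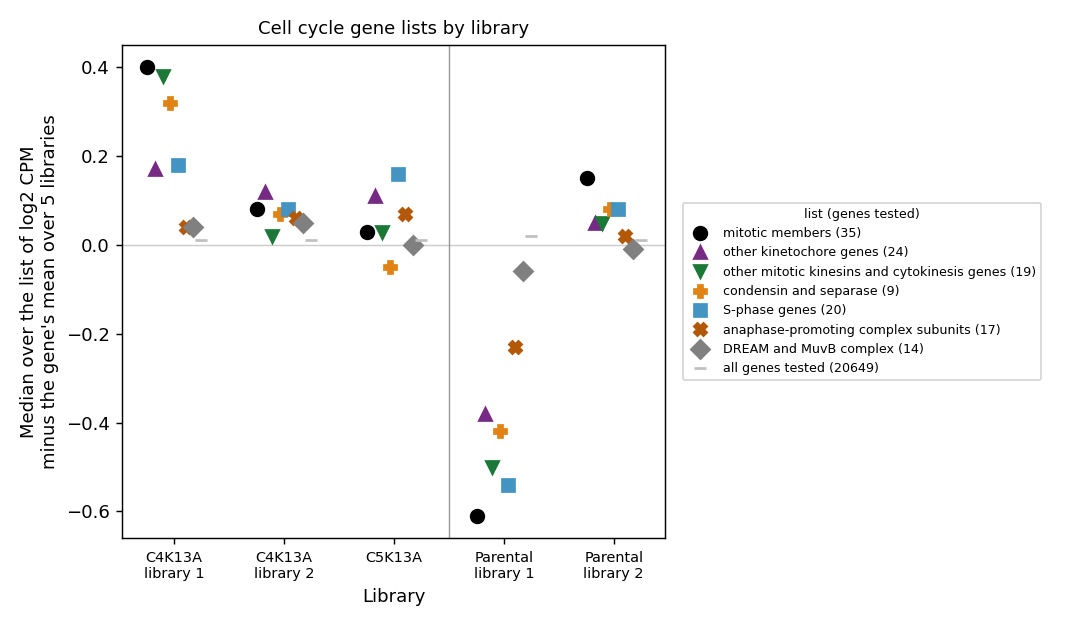
For each library, clones left of parental, the points give the median over a gene list of log2 CPM minus the gene's mean over the 5 libraries. In parental library 1 the mitotic genes (-0.61) and S-phase genes (-0.54) are lowest and DREAM and MuvB genes (-0.06) near all genes tested (0.02).

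S-phase genes, which act before mitosis, had a median fold change of 0.35, with 18 of 20 above 0, beside 49.4% of all genes. Like the mitotic genes they were low in parental library 1, where their median position was -0.54, against 0.08 to 0.18 in the other 4 libraries. RRM2, a subunit of ribonucleotide reductase, had 212 and 234 CPM in the C4K13A libraries and 197 CPM in C5K13A, against 119 and 145 CPM in the parental libraries. The groups of RRM2 did not overlap (0.70 ± 0.17, edgeR adjusted p = 0.206; 0.56 without parental library 1), and DESeq2 called it (adjusted p = 0.0096), within a range of 0.0096 to 0.812 over alternatives. CCNE2, a cyclin of S-phase entry, had a fold change of 0.65 ± 0.20. The median S-phase gap between the parental libraries was 0.62.

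Among CDK inhibitors, CDKN2C (p18) had 75.9 and 77.8 CPM in the C4K13A libraries and 81.2 CPM in C5K13A, against 41.7 and 59.7 CPM in the parental libraries (0.63 ± 0.18, edgeR adjusted p = 0.283; 0.39 without parental library 1 and 0.91 without parental library 2). CDKN2C passed without a filter on low counts (adjusted p = 0.0442). CDKN1B (p27), which restrains CDK2, had 58.4 and 42.4 CPM in the C4K13A libraries and 39.5 CPM in C5K13A, against 77.4 and 60.3 CPM in the parental libraries (-0.56 ± 0.21, adjusted p = 0.393; -0.37 without parental library 1). All clone libraries of CDKN2C lay above both parental ones, as for 13.6% of all genes. Those of CDKN1B lay below, as for 14.9%. The 9 genes of the CDK inhibitor and RB family list had a median fold change of 0.16, with 7 above 0. Their median gap between the parental libraries was 0.28.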

How the data were processed

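RNA sequencing counts of 5 C4-2B libraries were analysed. Total RNA was column-purified and DNase-treated, per the labels' protocols, and libraries made with the RiboErase method, which removes ribosomal RNA, were run on an Illumina HiSeq. The tools bcl2fastq, STAR 2.5, Subread and featureCounts 1.4.6-p5 are named in the submitters' processing notes, which give no roles. The sources used here do not give the build, annotation, strand setting or handling of multi-mapping reads. The deposited counts are whole numbers per gene that the authors did not normalize. Groups and replicate numbers came from the sample titles.

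Symbols, positions and exon lengths came from GENCODE v29 by gene ID (55297 of 58812 IDs matched), and promoters from RefSeq by symbol. The test was edgeR 4.0.16 under R 4.3.3, with TMM factors, filterByExpr, glmQLFit and glmQLFTest, Benjamini-Hochberg adjustment over all genes tested and a threshold of 0.05. Both clones against parental used 2 groups (3 residual degrees of freedom), and each clone, and clone against clone, 1 fit of 3 groups (2 residual degrees of freedom). Standard errors were taken as fold change over the square root of F. CPM divide counts by TMM-scaled totals. Each library was also left out in turn. Other alternatives used DESeq2 1.42.0, limma 3.58.1 and other factors, filters and groupings. The code was tested on simulated data.

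The members, the lists, the split at 200 CPM of mitochondrial ribosomal RNA and the tests were chosen with earlier results of these data known. Values in every library are given for 9 fixed genes and for the members with the highest and lowest fold change in each role group; other members are given by fold change. Each further list names up to 2 genes with the smallest p. A few further values were chosen after they were seen.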

Additional observations from a re-analysis of the deposited data

How the results depend on the processing

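Between both clones and parental, 42 genes were called with all 5 libraries, and 1167 without a filter, 2 with at least 5 CPM in 2 libraries, 555 with DESeq2, 11 with limma-voom, 105 in the 3-group fit, 11 with the C4K13A libraries summed and 71 with the ribosomal RNA covariate. Leaving out single libraries gave 0 to 130. The count of mitotic genes called, 0, became 2 without a filter (HMMR and CDK1), and 0 to 2 when single libraries were left out. The members above 0, 33 with all libraries, ran from 19 to 34 when single libraries were left out and were 13 among libraries over 200 CPM of mitochondrial ribosomal RNA. Their median, 0.39, ran from 0.07 to 0.80, and was 1.01 under and -0.06 over 200 CPM, a comparison added after seeing the data. For C4K13A, 159 genes were called, and 1346 without a filter, 50 at 5 CPM, 745 with DESeq2 and 86 with limma-voom, with 130 to 1667 when single libraries were left out; 5 members passed without a filter and 0 to 22 when libraries were left out, with medians of 0.09 to 0.91. For C5K13A, 11 were called, and 578 without a filter, 0 at 5 CPM, 235 with DESeq2, 0 with limma-voom and 7 when mitochondrial, ribosomal and small RNA genes were left out, with 41 to 668 when libraries were left out; 1 member (CDK1) passed without a filter, 0 to 11 when libraries were left out, and 7 to 33 members were above 0. Between the clones, 15 were called, and 7 with upper-quartile factors, 423 without a filter, 0 at 5 CPM, 182 with DESeq2 and 0 with limma-voom, with 51 to 155 when libraries were left out and 6 to 16 members above 0. The causes were not tested.

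A replicate block over the numbered libraries only (C4K13A and parental) called 885 genes and 1 mitotic gene, CDK1, for C4K13A and, without C5K13A, for the clones. The deviations of same-numbered libraries correlated with r = 0.193 over 20649 genes; the labels name no shared batch, so the samples share only a number. CENPF was 0.18 and ECT2 -0.07 in that fit, and SPC24, KIFC1 and RRM2 passed (edgeR adjusted p = 0.0490, 0.0446 and 0.0397).

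Fold changes that turned with single libraries left out ran from -0.34 to 0.84 for FOXM1, -0.12 to 1.71 for MYBL2, -0.02 to 1.08 for CCNB1, -0.17 to 1.14 for PLK1, -0.08 to 0.58 for AURKB and for TTK, -0.09 to 1.02 for CCNB2, -0.03 to 1.18 for PTTG1, -0.29 to 0.19 for CENPF, -0.12 to 0.23 for KIF2C, -0.31 to 0.42 for ECT2, -0.20 to 1.00 for BIRC5, -0.02 to 0.62 for BUB1, -0.23 to 0.58 for CENPA and -0.20 to 0.62 for NUF2. KIF2C was -0.02 in the 3-group fit and -0.01 with C4K13A summed, and ECT2 was -0.02 with upper-quartile factors and at 5 CPM and 0 with the covariate.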
